A study of Mus musculus with 6 samples.

Results

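The AP-1 and EGR immediate early genes measured in activated mouse macrophages were 10 genes of transcription factors and regulators: the Fos family members Fos, Fosb and Fosl2, the Jun family members Jun, Junb and Jund, the related factor Atf3, the zinc finger factors Egr1 and Egr2, and Ier2. They were taken from the count table by symbol, and all 10 had a row among the 46095 genes of the count table. RNA sequencing was done on bone marrow-derived macrophages of C57BL/6 mice aged 56 days. There were 3 libraries from Cd226-/- mice, which lack the activating adhesion receptor CD226 (DNAM-1), and 3 libraries from wild-type (WT) mice. Marrow cells of both genotypes had been cultured for 7 days in 20 ng/ml M-CSF, and every culture then received LPS (100 ng/ml) together with IFN-γ (20 ng/ml) over the last 24 h, so that no unstimulated cells and no earlier times were measured. The labels give neither how the Cd226 allele was made nor whether replicates came from separate mice or cultures. The p-values therefore reflect the spread among these libraries alone, and that spread may be technical.

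AP-1 is a family of dimers in which a Jun protein pairs with another Jun protein, with a Fos protein or with a factor such as ATF3 through a leucine zipper. Genes of this kind are called immediate early genes because signalling through MAP kinases, serum response factor and its ternary complex partners induces them within minutes, without new protein synthesis, and most of their transcripts decay soon afterwards. In macrophages they are among the first genes that LPS induces, and AP-1 then acts with NF-κB on cytokine and protease genes. The levels described here are those that stood a day after the stimulus, not the early peak.

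For 8 of the 10 members RefSeq (GRCm38.p6) gave promoter windows, each of 250 bases before to 50 bases after an annotated start. Of these, 5 are shown because their genes carry the contrasts described further on: Atf3, Fosl2 and Junb rose in Cd226-/- macrophages, Fos did not pass the test, and Egr2 is the EGR factor with a window. They are written 5′ to 3′ on the gene's own strand, and capitals mark matches to the motifs named in the next paragraph.
Atf3, chr1:191183284-191183583, minus strand: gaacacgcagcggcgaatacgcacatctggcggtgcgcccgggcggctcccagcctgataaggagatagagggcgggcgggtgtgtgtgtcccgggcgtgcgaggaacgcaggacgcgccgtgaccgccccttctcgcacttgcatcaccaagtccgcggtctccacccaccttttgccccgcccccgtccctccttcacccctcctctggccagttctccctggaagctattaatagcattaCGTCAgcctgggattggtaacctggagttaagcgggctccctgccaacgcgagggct
Fosl2, chr5:32136222-32136521, plus strand: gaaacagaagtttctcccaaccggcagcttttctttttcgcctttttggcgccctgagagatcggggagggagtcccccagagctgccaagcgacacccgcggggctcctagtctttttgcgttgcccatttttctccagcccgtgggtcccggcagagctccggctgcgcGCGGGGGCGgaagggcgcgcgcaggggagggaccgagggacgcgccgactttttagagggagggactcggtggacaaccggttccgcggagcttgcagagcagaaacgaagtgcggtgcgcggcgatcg
Junb, chr8:84978699-84978998, minus strand: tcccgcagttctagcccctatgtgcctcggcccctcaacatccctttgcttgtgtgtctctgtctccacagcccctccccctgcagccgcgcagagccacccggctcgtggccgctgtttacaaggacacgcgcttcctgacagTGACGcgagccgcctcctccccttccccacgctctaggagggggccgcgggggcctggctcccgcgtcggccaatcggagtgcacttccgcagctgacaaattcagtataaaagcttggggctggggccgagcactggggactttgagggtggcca
Fos, chr12:85473640-85473939, plus strand: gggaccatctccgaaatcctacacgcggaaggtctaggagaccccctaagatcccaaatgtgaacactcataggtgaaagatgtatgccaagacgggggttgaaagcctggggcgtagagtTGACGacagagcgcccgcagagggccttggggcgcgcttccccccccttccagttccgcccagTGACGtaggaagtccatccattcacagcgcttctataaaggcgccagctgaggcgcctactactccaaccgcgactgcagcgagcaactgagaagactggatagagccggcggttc
Egr2, chr10:67537619-67537918, plus strand: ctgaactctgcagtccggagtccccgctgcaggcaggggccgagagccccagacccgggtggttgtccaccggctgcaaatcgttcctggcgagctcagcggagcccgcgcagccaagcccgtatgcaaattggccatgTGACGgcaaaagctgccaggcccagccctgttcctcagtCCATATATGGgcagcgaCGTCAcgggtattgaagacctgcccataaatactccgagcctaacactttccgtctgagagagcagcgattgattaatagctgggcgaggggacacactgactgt

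Both strands were searched for the AP-1 site TGACTCA, the cAMP response element (CRE) TGACGTCA and its shorter core TGACG, the EGR site GCGNGGGCG, the ETS core CCGGAA and the CArG box, to which serum response factor binds. The CRE core is part of the full CRE, so the searches overlap. The CRE core was found in windows of 5 of the 8 members (Atf3, Egr2, Fos, Fosb and Junb), and by window in 7 of their 12, against 20.8% of all 32851 promoter windows. Egr2 has 5 of the 12 windows, which overlap in part, so a count by gene gives it more chances of a match. The EGR site was found in 2 windows, those of Fosb and Fosl2, against 5.55% of all windows. Among the windows of the 8 members, only those of Egr2 held a CArG box and the ETS core, which 1.63% and 14.9% of all windows hold. The ETS core of Egr2 lay in a window other than the one shown. Sequence outside these windows was not searched, so a gene without a match here may hold the motif elsewhere. The full CRE and the AP-1 site, held by 1.79% and 5.2% of all windows, matched in no window of these 8 genes. A match is a description of letters and not a measured binding site. The window of Jund ends at 70697788 on chromosome 8, before the GENCODE start of the gene at 70698949.

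The 6 libraries had 16838527 to 21658061 counts, so that 1 count was worth 0.0452 to 0.0600 CPM (the count scaled to a common library size, with TMM factors). Cd226 itself had 11, 10 and 8 counts in Cd226-/- replicates 1 to 3, against 5, 17 and 23 counts in WT replicates 1 to 3, and did not check the labels at this depth. Between Cd226-/- replicate 1 and the other 2 Cd226-/- libraries, chi-square over degrees of freedom was 7.61 and 7.76, against 2.17 between Cd226-/- replicates 2 and 3 and 3.79 to 6.32 between WT libraries. The summed level of 6 hepatocyte transcripts was 0 to 21.7 CPM in Cd226-/- libraries and 0 to 0.0584 CPM in WT libraries, and within Cd226-/- only replicates 2 and 3 held them. Where leaving out Cd226-/- replicate 1 changed a member's call, the value without it is given beside the result.

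The marker calls come from the edgeR test described in the next paragraph, where 16.1% of all genes were called higher and 14.8% lower. Macrophage markers were abundant in both genotypes, at a summed 19210 to 20000 CPM in Cd226-/- and 17930 to 19890 CPM in WT. Of these 8 markers 4 were higher and 3 lower in Cd226-/-. Stromal cell markers summed to 769 to 801 CPM in Cd226-/- and 497 to 578 CPM in WT, and 5 of 6 were higher. B cell markers summed to 30.9 to 41.2 CPM in Cd226-/- and 13.4 to 15.7 CPM in WT, and 5 of 6 were higher. T cell markers summed to 7.28 to 7.84 CPM in Cd226-/- and 4.27 to 6.83 CPM in WT, and of 6 tested 0 passed. Of 2 tested markers of mast cells or basophils 1 passed, and 0 of 2 for neutrophils and 0 of 3 for dendritic cells. Hba-a1, Hba-a2, Hbb-bs, Hbb-bt and Mcpt8 were listed at 0 in every library. Stromal cells also express AP-1 and EGR genes, and in bulk samples more cells of a type and more RNA per cell cannot be told apart. The part of these cells in the results that follow was not tested.

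Of the 10 genes, 6 rose in Cd226-/- macrophages, 0 fell, 3 did not pass and Fosb was too low to test. The genes that rose were Ier2, Atf3, Jund, Fosl2, Junb and Jun, by 1.12-fold to 1.52-fold, whereas Fos, Egr1 and Egr2 did not pass. These calls come from 1 edgeR quasi-likelihood fit over 13215 genes, with an adjusted p (Benjamini-Hochberg over all of them) under 0.05. In that fit 16.1% of all genes were called higher and 14.8% lower, so that 6 of 9 tested members stand beside a background of 16.1%. The median log2 fold change was 0.23 over the 9 tested members and -0.0045 over all genes tested. Values of all 3 Cd226-/- libraries lay above all 3 WT values for 5 members (Fosl2, Junb, Jund, Atf3 and Ier2), a pattern shown by 22.1% of all genes, and the opposite by 0 members against 22.3% of all genes. Scaled by library size alone, 1773 genes were higher and 2764 lower in Cd226-/-, in place of 2130 and 1956, and 5 members were still called higher. The summed level of the members was 925 to 1011 CPM in Cd226-/- and 752 to 776 CPM in WT.

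**Figure D1:**
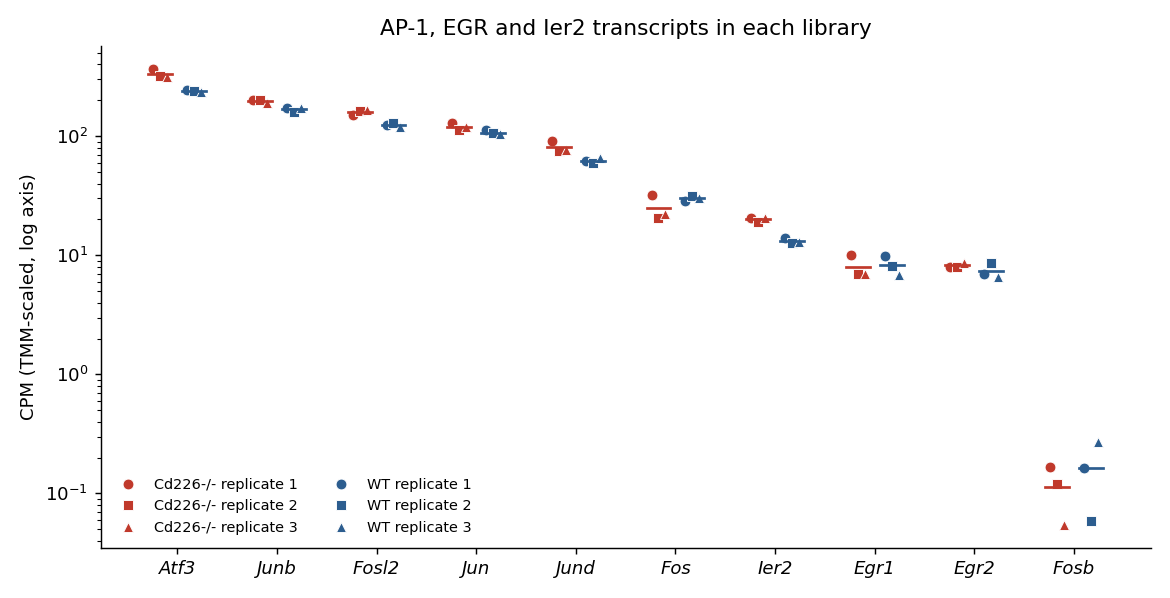
Level of each member in each library, in CPM on a log axis, with Cd226-/- in red to the left of WT in blue and a bar at the mean of 3 libraries. Atf3, Junb, Fosl2, Jund and Ier2 show no overlap between genotypes, Fos of Cd226-/- replicate 1 (32.1 CPM) lies above every WT value while replicates 2 and 3 lie below them, and Fosb stays below 0.3 CPM.

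**Figure D2:**
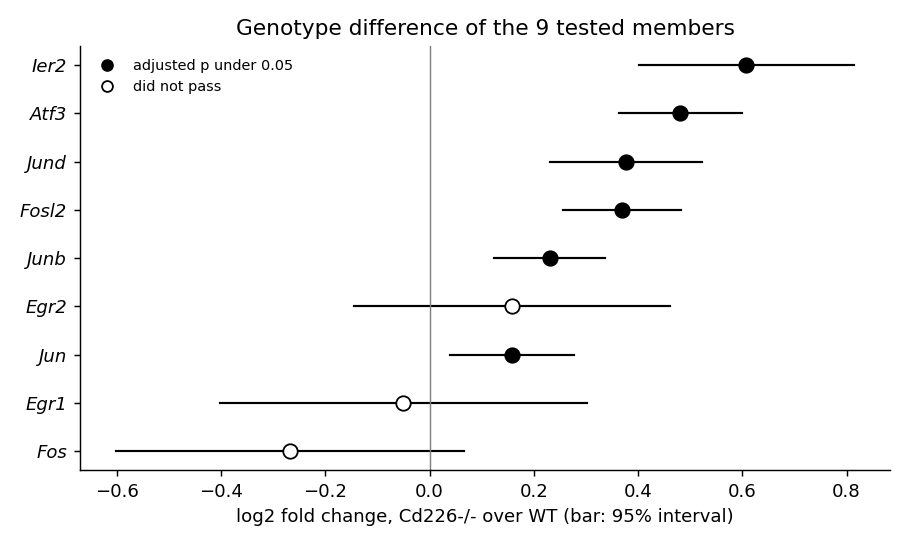
Log2 fold change of Cd226-/- over WT for the 9 tested members, with the 95% interval of the quasi-likelihood fit; filled points had an adjusted p under 0.05. Ier2 (0.61) is highest and Fos (-0.27) lowest, and the intervals of Fos, Egr1 and Egr2 include 0.

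Per kb of transcript, which puts genes of different length on 1 scale, Atf3 was the most abundant member, at 168 ± 15.0 CPM per kb in Cd226-/- and 121 ± 2.54 CPM per kb in WT (SD, n = 3 each). Junb followed at 109 ± 3.59 CPM per kb in Cd226-/- and 93.2 ± 4.22 CPM per kb in WT (SD, n = 3 each). Next came Jund, with library values of 35.9 to 54.7 CPM per kb, and Jun, with 32.6 to 40.2 CPM per kb, 2 neighbours whose ranges overlapped. Fosl2 ranged from 18.2 to 25.5 CPM per kb. Fos (9.73 to 15.2 CPM per kb) and Ier2 (8.25 to 13.5 CPM per kb) overlapped, as did Egr2 (2.23 to 2.92 CPM per kb) and Egr1 (1.53 to 2.24 CPM per kb) at the margin. Fosb was lowest, at most 0.0718 CPM per kb. Between Junb and Atf3, and between Fosl2 and its neighbours, library ranges did not overlap. It depends on the annotated transcript, since Jund has 1668 bases in GENCODE and starts further upstream in RefSeq.

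Atf3 encodes a bZIP factor that LPS and cell stress induce and that restrains cytokine transcription in macrophages. Its gene lies on chromosome 1, from 191170296 to 191218039 on the minus strand, with 4 exons (GENCODE vM21, GRCm38, as for all positions here). It had 368, 317 and 317 CPM in Cd226-/- replicates 1 to 3, against 245, 238 and 235 CPM in WT replicates 1 to 3. The 3 WT libraries were nearly level and all 3 Cd226-/- libraries were above them, replicate 1 most. Atf3 rose 1.40-fold (log2 fold change 0.48 ± 0.057 (SE), adjusted p = 1.14e-06 by edgeR).

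Ier2, a short gene of 1 exon whose nuclear product is a growth factor-inducible regulator (chromosome 8, 84661331 to 84662852, minus strand), had the largest fold change of the members. Its levels were 20.5, 19.0 and 20.5 CPM in Cd226-/- replicates 1 to 3, against 14.0, 12.6 and 12.9 CPM in WT replicates 1 to 3. The genotypes did not overlap and replicate 1 did not stand out. Ier2 rose 1.52-fold (log2 fold change 0.61 ± 0.099 (SE), adjusted p = 6.39e-05 by edgeR).

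The 3 Jun genes have 1 exon each and encode the obligate partners of Fos proteins. Jund, the Jun gene that is usually expressed without stimulation (chromosome 8, 70698949 to 70700616, plus strand), had 91.3, 75.1 and 76.1 CPM in Cd226-/- replicates 1 to 3, against 61.5, 60.0 and 65.1 CPM in WT replicates 1 to 3. Replicate 1 was the highest library, and the other 2 Cd226-/- libraries still lay above every WT library. Jund rose 1.30-fold (log2 fold change 0.38 ± 0.070 (SE), adjusted p = 3.29e-04 by edgeR). An antisense gene overlaps it, and since the strand setting of the counting is not given in the sources used here, reads of the 2 strands cannot be told apart.

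Junb, a Jun protein that can oppose c-Jun and takes part in macrophage activation (chromosome 8, 84974484 to 84978718, minus strand), had 201, 202 and 190 CPM in Cd226-/- replicates 1 to 3. WT replicates 1 to 3 had 174, 160 and 172 CPM, all below the Cd226-/- libraries. Junb rose 1.17-fold (log2 fold change 0.23 ± 0.051 (SE), adjusted p = 0.00146 by edgeR). Its annotated extent overlaps the end of Prdx2 on the opposite strand, which had 200 ± 3.08 CPM in Cd226-/- and 203 ± 8.96 CPM in WT (SD, n = 3 each) and did not pass (adjusted p = 0.811 by edgeR).

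Jun itself, which encodes c-Jun (chromosome 4, 95049034 to 95052222, minus strand), had 128.3, 112.2 and 118.4 CPM in Cd226-/- replicates 1 to 3, against 112.5, 105.7 and 103.8 CPM in WT replicates 1 to 3. The genotypes touched, since Cd226-/- replicate 2 lay just below WT replicate 1. Jun rose 1.12-fold (log2 fold change 0.16 ± 0.057 (SE), adjusted p = 0.0402 by edgeR), close to the threshold. In edgeR's test the call was lost without Cd226-/- replicate 1 (0.10, adjusted p = 0.129) or replicate 3 (0.17, 0.0726). It was also lost there without WT replicate 2 (0.14, 0.115) or replicate 3 (0.13, 0.160). The adjusted p of Jun ranged from 0.0176 to 0.160 over the ways of fitting. That range leaves aside Cd226-/- replicate 1 alone and the sum with the antisense gene Junos, given in the next paragraph.

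Junos, the antisense gene that begins inside Jun on the opposite strand (chromosome 4, 95051534 to 95167318), moved the other way. It had 11.96, 11.9 and 13.5 CPM in Cd226-/- replicates 1 to 3, against 20.9, 25.1 and 21.5 CPM in WT replicates 1 to 3. All Cd226-/- libraries were below all WT libraries, and Junos fell by 0.85 on the log2 scale (SE 0.10, adjusted p = 1.81e-06 by edgeR). With the counts of Jun and Junos summed, a setting chosen after seeing the data, the difference was 0.026 ± 0.055 (SE) on the log2 scale and did not pass (adjusted p = 0.754 by edgeR). How reads of the overlap were assigned is not given in the sources used here, so the rise of Jun and the fall of Junos are uncertain to that extent.

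Of the Fos genes, Fosl2 rose, Fos did not pass and Fosb could not be tested. Fosl2, which encodes FRA-2, a Fos protein that lacks the strong activation domain of c-Fos and is usually made later in a response (chromosome 5, 32135801 to 32157842, plus strand), had 151, 164 and 167 CPM in Cd226-/- replicates 1 to 3, against 124, 130 and 119 CPM in WT replicates 1 to 3. It is one of the members for which replicate 1 was not the highest Cd226-/- library, and the genotypes did not overlap. Fosl2 rose 1.29-fold (log2 fold change 0.37 ± 0.054 (SE), adjusted p = 1.82e-05 by edgeR).

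Fos, which encodes c-Fos (chromosome 12, 85473890 to 85477273, plus strand), had 32.1, 20.5 and 22.3 CPM in Cd226-/- replicates 1 to 3, against 28.4, 31.5 and 30.4 CPM in WT replicates 1 to 3. Replicate 1 was the highest of all 6 libraries while replicates 2 and 3 were the lowest. Fos had a log2 fold change of -0.27 ± 0.15 (SE; 95% interval -0.60 to 0.067) and did not pass (adjusted p = 0.210 by edgeR). Without Cd226-/- replicate 1 it was called lower, at -0.49 ± 0.091 (SE, adjusted p = 1.05e-04 by edgeR). With replicate 1 as the only Cd226-/- library, chosen after seeing the data, the value was 0.098 (adjusted p = 0.616 by edgeR), the lone library being assumed to vary like the WT libraries. The direction for Fos was therefore decided by which Cd226-/- libraries were used.

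Fosb, whose product is strongly induced in neurons and is otherwise low at rest (chromosome 7, 19302696 to 19310051, minus strand), had 3, 2 and 1 counts in Cd226-/- replicates 1 to 3, against 3, 1 and 6 counts in WT replicates 1 to 3. Most of these are at or under the 3 counts that a count of 0 allows, which corresponds to 0.136 to 0.180 CPM. A difference in Fosb was not detectable at this depth.

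The shares of the members' counts per kb within the Fos and Jun families do not depend on scaling between libraries. Among the 3 Fos members, without Fosl1, Fosl2 made up 60.2, 71.97 and 70.7% in Cd226-/- replicates 1 to 3, against 58.4, 57.1 and 55.7% in WT replicates 1 to 3. Fos made up 39.7, 27.9 and 29.3% in Cd226-/- replicates 1 to 3, against 41.5, 42.9 and 44.1% in WT replicates 1 to 3. All Cd226-/- libraries lay beyond all WT libraries, replicate 1 by little, and the Fosl2 share was 10.55 percentage points higher in Cd226-/- (exact permutation test, two-sided, p = 0.1, the smallest that 3 against 3 libraries can give). Without Cd226-/- replicate 1 the difference was 14.25 percentage points. With Fosl1 counted too, a choice made after seeing the data, Fosl2 made up 61.6 ± 6.52% in Cd226-/- and 51.4 ± 1.72% in WT (SD, n = 3 each). The ratio of Fosl2 to Fos was 2.17 ± 0.569 in Cd226-/- and 1.33 ± 0.0725 in WT (SD, n = 3 each), with 1.52 in Cd226-/- replicate 1. The size of the shift in the Fosl2 share depends on the length used: it was 6.04 percentage points from counts without length and 5.43 points per kb of coding sequence.

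In the Jun family Junb held most of the counts per kb, at 56.0 ± 2.11% in Cd226-/- and 56.8 ± 0.557% in WT (SD, n = 3 each). Jund held 26.5, 23.5 and 24.3% in Cd226-/- replicates 1 to 3, against 21.9, 22.8 and 23.4% in WT replicates 1 to 3, so that the Cd226-/- libraries lay just above the WT range (difference 2.04 percentage points, exact permutation test, two-sided, p = 0.1). Without Cd226-/- replicate 1 the Jund difference was 1.15 percentage points. Jun held 19.2 ± 0.747% in Cd226-/- and 20.5 ± 0.855% in WT (SD, n = 3 each; exact permutation test, two-sided, p = 0.2). No test of 3 against 3 libraries could pass 0.05, so these shares are given as values.

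**Figure D3:**
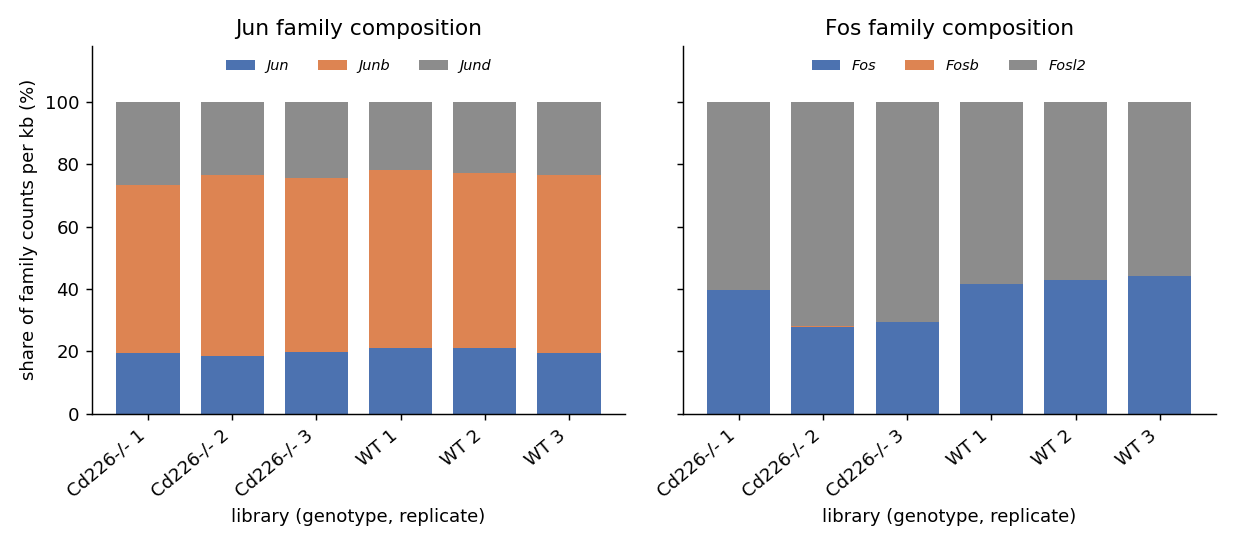
Share of each gene in the summed counts per kb of the Jun members or of the Fos members (Fosl1 not counted), in percent, for the 3 Cd226-/- libraries on the left and the 3 WT libraries on the right of each panel. The Fosl2 share is 60.2 to 71.97% in Cd226-/- and 55.7 to 58.4% in WT, while the Jun family shares differ by at most a few points.

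The EGR genes stayed low and did not pass. Egr1, a zinc finger factor that mitogens and LPS induce within minutes (chromosome 18, 34859823 to 34864984, plus strand), had 10.03, 6.89 and 6.92 CPM in Cd226-/- replicates 1 to 3, against 9.81, 8.12 and 6.88 CPM in WT replicates 1 to 3. The genotypes covered the same range, with a log2 fold change of -0.050 (95% interval -0.40 to 0.30, adjusted p = 0.852 by edgeR). Egr2, a relative of Egr1 that is used as a marker of alternatively activated macrophages (chromosome 10, 67535475 to 67542188, plus strand), had 8.05, 7.91 and 8.66 CPM in Cd226-/- replicates 1 to 3. WT replicates 1 to 3 had 6.96, 8.59 and 6.60 CPM, so that the genotypes overlapped. Its log2 fold change was 0.16 (95% interval -0.14 to 0.46, adjusted p = 0.442 by edgeR). The interval for Egr2 holds the log2 fold changes of Jun, Junb and Jund, and that for Egr1 those of Jun and Junb, so changes of that size could not be told from the spread between these libraries. Egr1 had 115 to 182 counts per library.

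Cd226-/- replicate 1 had the highest level of all 6 libraries for 5 members, namely Fos, Jun, Jund, Atf3 and Egr1. Averaged over the 9 tested members, each centred on its own mean of log2(CPM + 0.5), it stood at 0.23, against 0.028 and 0.071 in Cd226-/- replicates 2 and 3 and -0.16 to -0.076 in WT. Without it, Fosl2, Junb, Jund, Atf3 and Ier2 were still called higher and Fos lower, in edgeR's test. With it as the only Cd226-/- library, all 6 members called in the full comparison were called higher. Atf3 then had a log2 fold change of 0.63, against 0.40 without it, and Jund 0.56, against 0.28 without it.

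**Figure D4:**
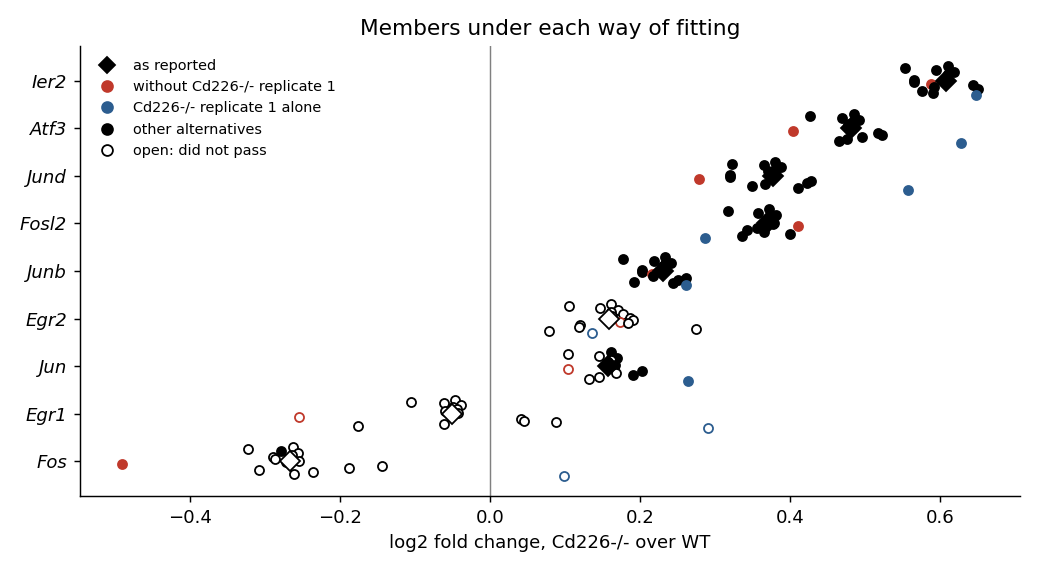
Log2 fold change of Cd226-/- over WT for each tested member under the reported fit (diamonds) and 16 alternatives (circles), filled where the adjusted p was under 0.05. Ier2, Atf3, Jund, Fosl2 and Junb stay filled and above 0 throughout, while Fos runs from -0.49 without Cd226-/- replicate 1 to 0.098 with that replicate alone.

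The profile over the 6 libraries that was most like the mean of the tested members, by root mean square difference of centred log2 values among 8990 other genes of at least 5 CPM, was that of Ptafr (0.0167), the receptor for platelet-activating factor. It had 339 ± 20.4 CPM in Cd226-/- and 292 ± 7.34 CPM in WT (SD, n = 3 each). Next came Rabgef1 (0.0176), an exchange factor for the endosomal GTPase RAB5, and Helz2 (0.0178), a helicase and nuclear receptor coactivator. The likeness is a description over 6 libraries.

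Among 12 other bZIP factors that pair or compete with Jun and Fos proteins, 5 rose, beside the 16.1% of all genes, and the median log2 fold change was 0.057. Jdp2, a repressor that binds Jun proteins, had 124, 91.2 and 97.3 CPM in Cd226-/- replicates 1 to 3, against 68.0, 64.3 and 67.1 CPM in WT replicates 1 to 3, and rose with a log2 fold change of 0.65 (adjusted p = 0.00169 by edgeR). Maf, a macrophage bZIP factor that drives Il10, averaged 144 ± 7.92 CPM in Cd226-/- and 105 ± 3.09 CPM in WT (SD, n = 3 each; adjusted p = 8.67e-07 by edgeR). Batf2, an interferon-induced partner of Jun proteins, averaged 159 ± 8.41 CPM in Cd226-/- and 123 ± 9.58 CPM in WT (SD, n = 3 each; adjusted p = 5.89e-05 by edgeR). Maff and Batf3 rose too, with log2 fold changes of 0.45 and 0.91, Batf3 not being called with Cd226-/- replicate 1 alone. Fosl1, the fourth Fos family gene, had a log2 fold change of -0.044 and did not pass (adjusted p = 0.868 by edgeR).

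Nab2, a co-repressor that EGR factors induce and that in turn represses their targets, averaged 34.1 ± 1.57 CPM in Cd226-/- and 21.4 ± 0.587 CPM in WT (SD, n = 3 each). It rose with a log2 fold change of 0.67 ± 0.080 (SE, adjusted p = 1.18e-06 by edgeR), and its genotypes did not overlap. Of the other EGR and NAB genes, Nab1 (0.041, adjusted p = 0.576 by edgeR) and Egr3 (0.63, adjusted p = 0.175 by edgeR) did not pass, and Egr4 was listed at 0 in all libraries.

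Of 24 other immediate early genes, 12 rose and 2 fell, again beside 16.1% and 14.8%, with a median log2 fold change of 0.19. Leaving aside the fit with Cd226-/- replicate 1 alone, some of the genes that rose lost their call in alternatives. Zfp36l1 lost it without Cd226-/- replicate 2 or 3, without any 1 WT library, with library size alone, without a filter and by DESeq2. Ier5 lost its call in 6 alternatives and Tiparp in 4. Csrnp1 lost it without WT replicate 2 or 3, and Trib1 without WT replicate 1. Klf2, a Krüppel-like factor that dampens NF-κB responses, averaged 19.5 ± 1.36 CPM in Cd226-/- and 10.5 ± 0.394 CPM in WT (SD, n = 3 each; adjusted p = 9.59e-07 by edgeR). Gadd45b, a stress gene that acts on MAP kinase kinases, had 57.0, 44.2 and 44.2 CPM in Cd226-/- replicates 1 to 3, against 27.9, 24.2 and 27.1 CPM in WT replicates 1 to 3 (adjusted p = 2.09e-06 by edgeR). Btg2, an antiproliferative gene, averaged 35.3 ± 3.66 CPM in Cd226-/- and 25.2 ± 2.24 CPM in WT (SD, n = 3 each; adjusted p = 2.62e-04 by edgeR). The genes that fell were Id1 and Id3, inhibitors of basic helix-loop-helix factors, by 0.73 and 0.67 on the log2 scale. Id1, at 2.01 CPM in Cd226-/- and 3.36 CPM in WT on average, lost its call without Cd226-/- replicate 2 or 3, without any 1 WT library, with Cd226-/- replicate 1 alone and by DESeq2, with an adjusted p of up to 0.489.

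Genes that act upstream are given by their counts, beside the 16.1% of all genes that rose and the 14.8% that fell. Whether the counts differ from those shares was not tested. Of 6 genes for serum response factor and its partners 0 rose and 1 fell, Mkl2, a coactivator, which had 46.0 ± 1.70 CPM in Cd226-/- and 54.1 ± 3.63 CPM in WT (SD, n = 3 each; adjusted p = 0.0111 by edgeR). That call was lost without Cd226-/- replicate 2, without WT replicate 2 and with Cd226-/- replicate 1 alone, and its adjusted p ranged up to 0.152. Of 21 kinases of the MAP kinase cascade 5 rose and 1 fell, again beside 16.1% and 14.8% of all genes. Mapkapk2, a kinase that stabilises cytokine transcripts, averaged 324 ± 7.12 CPM in Cd226-/- and 251 ± 7.58 CPM in WT (SD, n = 3 each; adjusted p = 4.04e-06 by edgeR). Map3k1 and Map2k1, which encode MEKK1 and MEK1, had log2 fold changes of 0.52 and 0.21. Map3k5 and Mapk3 were the other kinases that rose, and Map2k3 was the one that fell. Map3k5 and Map2k3 lost their calls without Cd226-/- replicate 2 or 3, without WT replicate 1 or 3 and with Cd226-/- replicate 1 alone, and Map2k3 also by DESeq2. Mapk3 lost its call in 10 alternatives: without Cd226-/- replicate 1 or 2 or any 1 WT library, with library size alone, without a filter, by DESeq2 and with GC and length offsets, with and without the replicate block.

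Of 10 MAP kinase phosphatases 2 rose and 1 fell, beside 16.1% and 14.8% of all genes, and a difference from those shares was not tested. Dusp3 fell by 0.28 on the log2 scale (adjusted p = 6.46e-04 by edgeR), a call lost with Cd226-/- replicate 1 alone. Dusp10 (0.57, adjusted p = 0.0148 by edgeR) and Dusp6 (0.20, adjusted p = 0.0283 by edgeR) rose. The call for Dusp10 was lost without Cd226-/- replicate 2 or WT replicate 1. That for Dusp6 was lost without Cd226-/- replicate 1 or 2 or WT replicate 2, by DESeq2 and when scaled by library size. Dusp1, a phosphatase that LPS induces, had 103 CPM in Cd226-/- and 96.0 CPM in WT on average and did not pass (adjusted p = 0.231 by edgeR). Its log2 fold change was 0.027 to 0.25 over the ways of fitting. The call changed only with Cd226-/- replicate 1 alone, where spread within Cd226-/- cannot be estimated.

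Genes known as AP-1 targets did not move one way: of 16 tested 6 rose and 7 fell, beside 16.1% and 14.8% of all genes. Their median log2 fold change was -0.080. Timp1, a metalloproteinase inhibitor, averaged 371 ± 8.53 CPM in Cd226-/- and 240 ± 13.5 CPM in WT (SD, n = 3 each; adjusted p = 4.81e-09 by edgeR). Mmp12, the macrophage elastase, averaged 287 ± 21.5 CPM in Cd226-/- and 474 ± 28.1 CPM in WT (SD, n = 3 each; adjusted p = 6.57e-09 by edgeR). Hmox1, the heme oxygenase, averaged 3608 ± 305 CPM in Cd226-/- and 6603 ± 417 CPM in WT (SD, n = 3 each; adjusted p = 1.50e-09 by edgeR), and is also a target of NRF2. Among 7 tested heat shock genes 1 rose and 2 fell, beside the same shares of all genes. Dnajb1, a co-chaperone, rose by 0.36 on the log2 scale. Hsph1 and Hspd1, a chaperone of the cytosol and one of mitochondria, fell by 0.62 and 0.29.

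**Figure D5:**
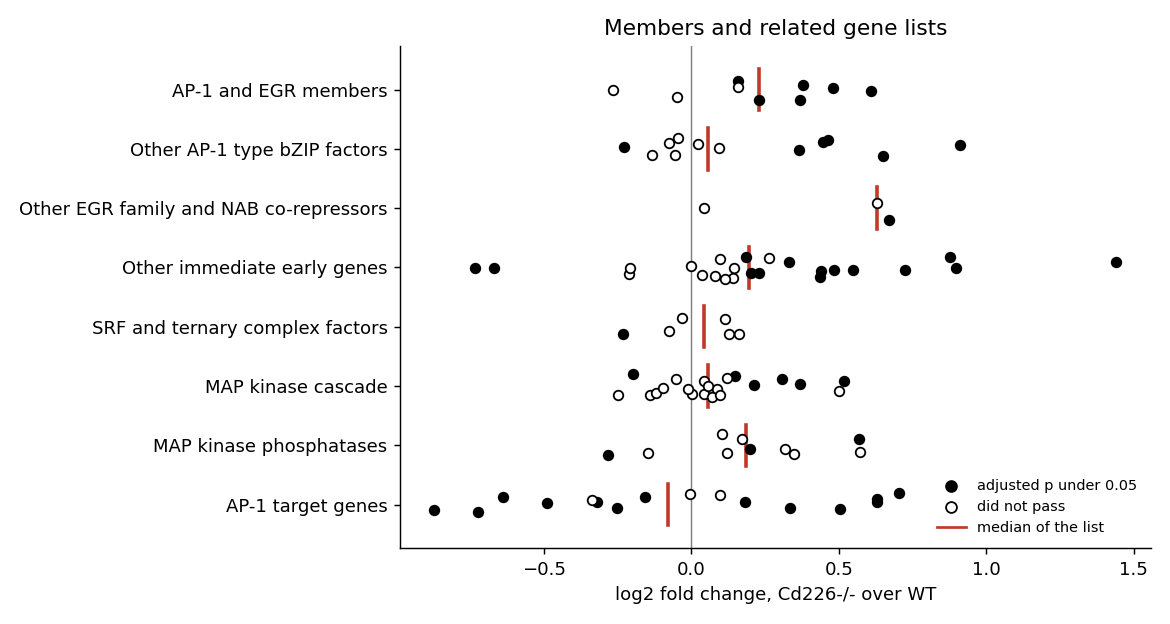
Log2 fold change of Cd226-/- over WT for each tested gene of the members and of 7 related lists, filled where the adjusted p was under 0.05, with a red bar at the median of each list. The medians are 0.23 for the members, 0.19 for other immediate early genes and -0.080 for AP-1 targets.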

How the data were processed

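Trizol was used to isolate RNA, per the labels' protocols. The values deposited by the authors are raw counts of reads, listed by gene symbol in 1 table whose 6 columns each match the title of 1 library; 0 columns were left unused. HISAT2 and the build GRCm38 are named in the submitters' processing notes. For the counting tool, its annotation and its strand setting, the sources used here give nothing.

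The count test was edgeR 4.0.16 (R 4.3.3): filterByExpr by genotype, TMM scaling, then the robust quasi-likelihood test of genotype without covariates, with Benjamini-Hochberg adjustment over all 13215 genes tested. Standard errors are the log2 fold change over the square root of F, and 95% intervals use the moderated degrees of freedom. The biological coefficient of variation was 6.75%. Alternatives were DESeq2 1.42.0 (size factors, Wald test), limma-voom (limma 3.58.1), library size alone, no filter, a mean of at least 5 CPM, offsets for GC content and length (lowess span 0.3, 94.1% of genes with values), the replicate number as a block, and each library left out. Lengths come from the longest coding GENCODE vM21 transcript. The steps were also run on simulated data with 200 changed genes. The outcome is not given here, so that run adds no support to the calls.

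The members and lists were chosen with earlier results of these data known. Genes named beyond the members are up to 3 called genes per list, by p, the 3 of most similar profile and Cd226. Junos, Prdx2, Fosl1, Nab1, Egr3, Egr4, Dusp1, Maff, Batf3, Id1 and Id3 were named after their values were seen. So were Map3k5, Mapk3, Map2k3, Zfp36l1, Ier5, Tiparp, Csrnp1 and Trib1. The floor of 3 counts covers counting error only, whereas the 95% intervals include the spread between libraries. Some genes of the related and marker lists are not reported here by name.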

Additional observations from a re-analysis of the deposited data

How the results depend on the processing

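Over 17 alternatives the members called higher numbered 5 or 6, and Fosl2, Junb, Jund, Atf3 and Ier2 kept their call in each. Jun missed the threshold with library size alone (log2 fold change 0.10, adjusted p = 0.147), without a filter (0.15, 0.0576), by DESeq2's Wald test (0.16, 0.0640) and by limma-voom (0.16, 0.0543), beside the libraries named above; the cause was not tested. The number of members called lower was 1 (Fos) in place of 0 without a filter (-0.28, adjusted p = 0.0117), and 0 to 1 over the libraries left out. Egr1, never called, had -0.25 to 0.088 with 1 library left out and 0.29 with Cd226-/- replicate 1 alone, where Fos had 0.098, and the Junb share in its family differed by -1.80 to 0.31 percentage points with 1 library left out. At an adjusted p under 0.01, 2636 genes were called, 1167 of them lower, and 31 genes of the related lists, 9 of them lower, in place of 4086, 1956, 47 and 15. Scaling by library size alone gave 1773 genes higher and 2764 lower, in place of 2130 and 1956, and a median of -0.058 over all genes. Replicate numbers did not pair the libraries (correlations of deviations -0.0135 to 0.0156 for equal numbers); with the replicate number as a block 4137 genes and the same number of members, 6, were called. For Fosb, at 1 to 6 counts per library, depth limits what can be seen.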
